A study of Mus musculus with 21 samples.

Results

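Messenger RNAs of the cytosolic ribosomal proteins were followed in mouse pharyngeal arches and pinna, in libraries labelled as cranial neural crest cells (CNCCs), the migratory cells that fill the pharyngeal arches and build most of the facial skeleton. The genes were chosen by symbol alone, as names that begin with Rpl, Rps or Rplp followed by a number, together with Rpsa, leaving out names that end in -ps and the Rps6k kinases. This rule found 85 of the 24594 genes counted, 52 of them of the large and 33 of the small subunit. The GENCODE annotation of GRCm38 (mm10) classed 83 as protein coding and 2, Rps4l and Rpl32l, as pseudogenes. Their loci lay on 19 chromosomes.

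RNA was sequenced in 21 libraries, 3 in each of 7 groups. The question was how CNCCs of the second pharyngeal arch (PA2) change on their way into the outer ear and what loss of a distant Hoxa enhancer region does to them. In the stage series, PA2 cells of E10.5 (E, embryonic day) were set beside cells of the pinna, the external ear that forms from PA2, at E12.5 and E14.5. All 9 of these libraries were wild type at the enhancer and came from embryos carrying Wnt1::Cre and ROSA-RFP, a Cre that recombines in the neural crest lineage and a red reporter it switches on, and red cells were collected by sorting. Tissue was dissociated with trypsin at E10.5 and E12.5 and with papain at E14.5, so that enzyme and E14.5 cannot be told apart. In the genotype series, PA2 and PA3 of E10.5 were compared between wild type (WT) and HIRE1del/del embryos, in which the Hoxa Inter-TAD Regulatory Element 1 had been removed from both alleles with CRISPR-Cas9. These 12 libraries carry the same CNCC label, but the study's methods describe dissection of the arches and no sorting for them, so that their RNA may be that of the whole arch. The mice had a mixed C57Bl/6J;CD1 background, and cells of male and female embryos went into the same pools. The stage libraries were read single-end and the genotype libraries paired-end, so values of both series are only set side by side.

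Each ribosome joins a small subunit, which reads the message, and a large subunit, which makes the peptide bond, and nearly every core protein is present once per particle. Many ribosomal protein messages begin with a terminal oligopyrimidine (TOP) tract, a C followed by a run of C and T, through which mTOR and LARP1 control how well they are translated. Neural crest is known for its sensitivity to the supply of ribosomes, since defects in rRNA synthesis (Tcof1, Polr1c) cause craniofacial malformation. A few genes have a relative that can take their place in the ribosome, such as Rpl39 and Rpl39l, Rpl22 and Rpl22l1, and Rps27 and Rps27l.

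The starts of 8 members are shown because they hold the tract the family is known by, or belong to the gene pairs described further on. Each run has 12 bases before and 18 bases from a start annotated by RefSeq on GRCm38.p6, 5′ to 3′ on the transcribed strand, and capitals mark the longest pyrimidine tract that begins with C within 10 bases of the start. The positions, in the order of the lines, are chr11:114668568-114668597 (+), chr3:90213631-90213660 (−), chr7:141447639-141447668 (+), chr16:33056470-33056499 (+), chr9:66946074-66946103 (+), chrX:37085205-37085234 (−), chr16:10170216-10170245 (+) and chr3:28805496-28805525 (+).
Rpl38: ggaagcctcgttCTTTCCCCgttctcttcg
Rps27: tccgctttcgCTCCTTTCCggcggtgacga
Rplp2: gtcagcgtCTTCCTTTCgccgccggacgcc
Rpl35a: gggcttgCCTTCCTCTTTCCgccatcttgg
Rps27l: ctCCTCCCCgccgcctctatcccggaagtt
Rpl39: aagctccgcctctagcgaCTTCTTCTaatc
Rpl39l: ccaggCCTTTCCggatttccggtggtcgcc
Rpl22l1: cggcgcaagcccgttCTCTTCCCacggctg
In Rpl38 the tract began at the annotated first base, and in Rps27, Rplp2 and Rpl35a it ran across it. In Rpl39 and Rpl22l1 it began after that base, and in Rps27l and Rpl39l it ended before it. RefSeq promoter windows were matched for 64 of the 85 members. A C followed by at least 4 further pyrimidines stood at an annotated start in 14 of the 64 (21.9%), against 2.80% of the 18386 genes of the count tables that had a window. Within 10 bases of the start it was found in 40 members (62.5%) and in 35.2% of all genes. In the whole window of 300 bases, on either strand, CCGGAAG was present in 40.6% of members and 12.8% of genes, AAGATGGC in 9.38% and 3.57%, and CACGTG in 9.38% and 9.16%. These are matches of letters only.

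Library totals ran from about 25804400 to 32210100 counts, apart from the 3 libraries of pinna E14.5, which held about 47506100 to 49058900. Hoxa2, the target of the deleted region, checked the genotype labels: it lay between 73.4 and 84.2 CPM (counts per library total, with the total multiplied by its TMM factor) in PA2 WT and between 4.75 and 7.09 CPM in PA2 HIRE1del/del, and between 56.1 and 65.1 CPM in PA3 WT and 22.1 and 25.6 CPM in PA3 HIRE1del/del. The mesenchymal markers of CNCCs, a list that includes Hoxa2, were all detected. Their sum ran from 795 to 1306 CPM in the genotype series and from 1937 to 4285 CPM in the stage series. Globins and other erythroid genes, which sorted CNCCs should lack, summed to 1.84 to 14.6 CPM in the stage series, but to 1528 to 3325 CPM in PA2 and 12393 to 24515 CPM in PA3 of the genotype series. No source states which animals gave which library, so p-values measure the spread between these samples only. No 2 libraries of a group were copies of each other.

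Ribosomal protein genes made up a smaller share of the RNA at each later stage. In PA2 at E10.5 they took 1.70%, 1.66% and 1.60% of all counts, in the pinna at E12.5 1.36%, 1.32% and 1.41%, and in the pinna at E14.5 1.18%, 1.10% and 1.12%. The ranges of the 3 stages did not overlap, and both subunits followed the same order: the large subunit went from 0.977% ± 0.0330 (SD, n = 3) to 0.792% ± 0.0187 and 0.675% ± 0.0203, the small subunit from 0.678% ± 0.0183 to 0.571% ± 0.0240 and 0.458% ± 0.0190. In the genotype series the share was 2.53%, 2.58% and 2.37% in PA2 WT, 2.73%, 2.59% and 2.48% in PA2 HIRE1del/del, 2.64%, 2.75% and 2.76% in PA3 WT and 3.04%, 2.88% and 2.75% in PA3 HIRE1del/del. PA3 libraries lay above PA2 libraries of the same genotype without overlap, whereas the genotypes overlapped within each arch. A share of counts is relative: less ribosomal protein RNA and more of all other RNA cannot be told apart in it, nor can fewer cells of a type and less RNA per cell.

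**Figure D1:**
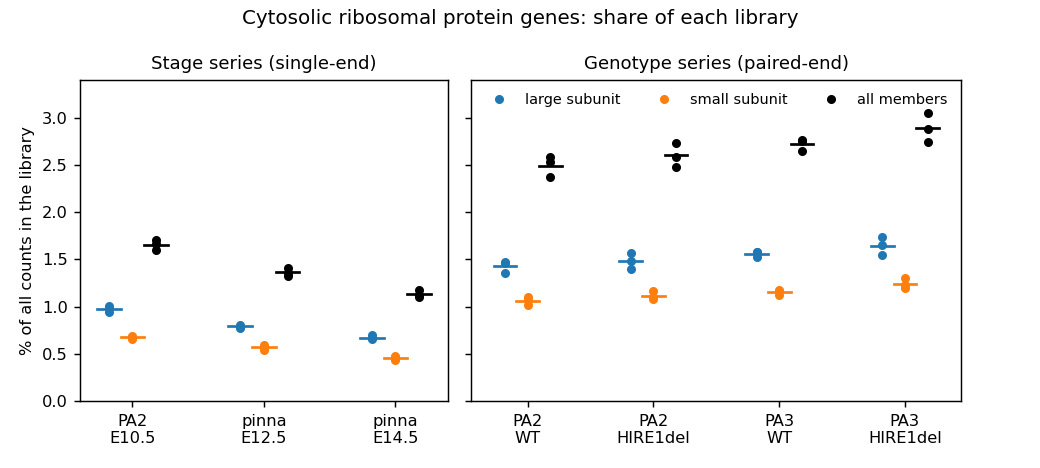
Share of all counts in a library (y axis, %) taken by all 85 ribosomal protein genes, the large subunit and the small subunit, for the 3 libraries of each group (points) with their mean (line). In the stage series all members together sit at 1.60% to 1.70%, 1.32% to 1.41% and 1.10% to 1.18% in order of stage, and in the genotype series PA3 sits above PA2 within each genotype.

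Levels of single members spread widely although the ribosome holds most of these proteins in equal number. Levels per kilobase rest on the exonic bases given for each gene, such as 499 for Rplp1 and 6270 for Rps15a. That length can exceed the message, so the order of members depends on the annotation too. Per kilobase of exon, Rplp1 (an acidic protein of the stalk that recruits elongation factors) ranked first over the 9 stage libraries at 667 CPM per kb, followed by Rpl4 at 625 and Rpl8 at 605 CPM per kb. The order changed with stage: at E14.5 Rpl4 was at 592 ± 29.7 (SD, n = 3), Rpl8 at 482 ± 40.7 and Rplp1 at 405 ± 51.8 CPM per kb, the last pair differing by less than their summed SD. In the genotype series Rplp1 was again first at 1191 CPM per kb, followed by Rpl8 at 870 and the stalk base Rplp0 at 845 CPM per kb. At the other end, Rpl10l, known as a testis relative of Rpl10, had no count in any of the 21 libraries, which at the floor of 3 counts allows up to 0.116 CPM by library total in the shallowest library. Rpl3l, the muscle relative of Rpl3, had 0 or 1 count in each stage library and at most 3 in each genotype library. Rps4l had 1 count in all.

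Not every low value belonged to a relative. Rps10 and Rps28, both core proteins of the small subunit, had 0 or 1 count in each of the 9 stage libraries, whereas in the genotype libraries Rps10 had 92 to 251 counts and Rps28 had 40 to 141. Rps18, another core protein, had 89, 0 and 0 counts at E10.5, 3, 0 and 0 at E12.5, and 1, 1 and 125 at E14.5, against 302 to 1613 in the genotype libraries. Such counts cannot be read as levels of the message. Rps2, Rpl10a and Rpl29 were also far lower in the stage libraries, with 172 to 1802, 12 to 68 and 35 to 143 counts. In the genotype libraries they had 6702 to 15170, 3212 to 4933 and 713 to 3348 counts. Their stage values carry the same limit. Transcripts were cut into windows of 50 bases, the read length, and genes overlapping a member's own locus were left out. The median member shared 33.5% of its windows with another annotated gene, and the most was 85.5% (Rpl36a). Under 10% of windows were shared by 10 members, 10 to 50% by 52 and more by 23. How reads with several matches were counted is not given in the sources used here. The exons of 38 members also overlap those of another gene, on the same or the opposite strand. Reads of such stretches cannot be told apart by position, nor by strand in an unstranded library. In the stage series the replicate SD on the log2 scale had a median of 0.068 in tested members under 10% shared, 0.099 at 10 to 50% and 0.123 above that, and members over an SD of 0.3 numbered 0 of 8, 6 of 48 and 4 of 23.

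Members tested were those that reached 1 CPM by library total in 2 or more libraries of their series. In the stage series 79 of 85 passed, among 13438 genes. Rpl3l, Rpl10l, Rpl32l, Rps4l, Rps10 and Rps28 did not. In the genotype series 80 passed among 14383 genes, and Rpl3l, Rpl10l, Rpl32l, Rpl39l and Rps4l did not. Called means an adjusted p below 0.05 in edgeR's quasi-likelihood test with Benjamini-Hochberg adjustment over all genes of the series, and fold changes are log2 values of CPM with their standard error (SE).

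From PA2 at E10.5 to the pinna at E12.5, most members fell and hardly any rose. Of 79 tested, 51 fell, 2 rose and 26 did not pass. The stages differ broadly, since 68.8% of all genes tested were called, but in near balance, with 35% higher and 33.7% lower. The median log2 fold change was −0.30 over members, 0.01 over all genes and −0.09 over genes of at least 64 CPM. Both subunits moved alike, with 31 of 49 large and 20 of 30 small subunit members lower and 1 of each higher.

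The largest falls included Rps27l, the p53-inducible relative of Rps27. It lay at 66.3, 61.6 and 53.3 CPM at E10.5 and at 31.4, 31.2 and 31.7 CPM at E12.5 (log2 fold change −0.94, SE 0.09, adjusted p = 2.38e-06, edgeR). The E12.5 libraries lay close together and well below those of E10.5. Rpl41, the smallest ribosomal protein, went from 135, 138 and 138 CPM to 86.7, 80.6 and 85.6 CPM (−0.70, SE 0.08, adjusted p = 1.4e-05, edgeR). Rpsa, the small subunit protein also known as the laminin receptor, went from 239, 251 and 232 CPM to 145, 151 and 156 CPM (−0.68, SE 0.06, adjusted p = 2.99e-06, edgeR). In both genes the groups did not overlap. The other leading falls were those of Rpl27 (−0.68) and Rpl12 (−0.62), a protein of the stalk base. The rises were Rps27, from 19.3, 19.8 and 19.3 CPM to 23.2, 23.8 and 22.9 CPM (0.26, SE 0.08, adjusted p = 0.0102, edgeR), and Rpl39l. Rps27 has a near-identical copy, Rps27rt (0.23, SE 0.08, adjusted p = 0.0199, edgeR), and how reads were split between both genes is uncertain.

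From E12.5 to E14.5 in the pinna, members moved in both directions. Of 79, 32 fell, 8 rose and 39 did not pass, against 65.7% of all genes called, 32.6% higher and 33.1% lower. The median was −0.10 over members and −0.01 over all genes. This comparison leaned on the scaling between libraries: with library totals in place of TMM factors the median of all genes moved to −0.13 and that of members to −0.22, and 46 members were lower and 4 higher. Over all genes that scaling called 3517 of 9130 higher, where TMM called 4382 of 8824.

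Rps29, a zinc-binding protein of the small subunit at chr12:69157722-69159186, fell most. Its level was 68.6, 71.3 and 67.7 CPM at E10.5, 56.0, 49.4 and 63.6 CPM at E12.5 and 14.1, 17.6 and 20.3 CPM at E14.5. The drop from E12.5 to E14.5 was −1.70 (SE 0.12, adjusted p = 5.48e-07, edgeR), several times the spread within a stage. Rpl27, a large subunit protein at chr11:101442298-101445529, stood at 63.0, 69.6 and 64.9 CPM, then at 42.1, 37.4 and 44.0 CPM, and at E14.5 at 20.7, 19.2 and 22.4 CPM. It fell at both steps, the second by −0.99 (SE 0.08, adjusted p = 1.5e-06, edgeR). The next falls were Rpl30 (−0.87), Rpl36 (−0.86) and Rpl19 (−0.82). Rpl36 was at 6.05, 7.74 and 9.45 CPM and then at 3.94, 2.90 and 5.96 CPM. Its call was lost without replicate 3 of E12.5 (adjusted p = 0.0843) and without replicate 1 or 2 of E14.5 (adjusted p = 0.0601 and 0.0758, edgeR).

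Among members with a mean log2 CPM of at least 1, the largest rise at this step was Rps2, a small subunit protein at the entry of the mRNA channel. It had 20.8, 11.8 and 9.93 CPM at E10.5, 6.39, 11.3 and 11.6 CPM at E12.5 and 19.5, 37.9 and 37.2 CPM at E14.5 (1.69 from E12.5 to E14.5, SE 0.33, adjusted p = 0.000846, edgeR). The groups of both pinna stages did not overlap, but replicates within a stage lay far apart and 56.4% of its windows are shared with other genes, mostly pseudogenes. Its stage counts were also far below those of the genotype series, so the change cannot be read as one of the message. Rps12 went from 92.9, 101 and 98.2 CPM to 140, 137 and 144 CPM (0.52, SE 0.06, adjusted p = 1.37e-05, edgeR), a rise larger than the replicate spread that followed a fall of −0.32 at the step before. Rpl17, at the peptide exit, rose from 5.01, 6.60 and 4.32 CPM to 7.62, 8.05 and 9.0 CPM (0.63, SE 0.20, adjusted p = 0.0147, edgeR), a call lost without replicate 3 of E12.5 (adjusted p = 0.0723). Rpl10 (0.24), Rps19 (0.33) and Rpl7 (0.17) rose less, and the groups of Rps19 overlapped. With library totals as the scaling, none of these 3 was called (adjusted p = 0.238, 0.16 and 0.469, edgeR), and each was also lost without single libraries. For Rpl10 these were replicates 1 and 3 of E12.5 and 1 and 2 of E14.5, with adjusted p from 0.0699 to 0.0945. For Rps19 they were replicates 2 and 3 of both stages (0.0627 to 0.128). For Rpl7 they were all 3 of E12.5 and replicates 1 and 3 of E14.5 (0.0526 to 0.0916).

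Over the whole interval, pinna E14.5 against PA2 E10.5, 57 members fell, 4 rose and 18 did not pass, while 82% of all genes were called, 42% higher and 40% lower. Groups lay apart, with E14.5 lower, in 57 members and in 41.1% of all genes. The median was −0.47 over members, 0.02 over all genes and −0.12 over genes of at least 64 CPM. The 3 stage comparisons share libraries, so their counts are not independent of each other. Of the members under 10% shared, 7 of 8 fell and the other was Rpl39l. Some of these still overlap exons of another gene, such as Rps3 and Rps20. Rpl8, a large subunit protein near the peptidyl transferase centre, went from 1076, 1089 and 1009 CPM at E10.5 to 753, 745 and 761 CPM at E12.5 and 676, 593 and 697 CPM at E14.5 (−0.69 over the interval, SE 0.07, adjusted p = 1.58e-06, edgeR), with 6.3% of its windows shared. The largest falls were Rps29 (−1.99), Rpl27 (−1.67), Rpl19 (−1.36), Rpl7a (−1.26) and Rpl36a (−1.24), so that Rps29 kept 25.1% of its E10.5 level and Rpl27 31.5%. Apart from Rpl39l, the genes that rose were Rps2 (1.15), Rpl35a (0.71) and Rps12 (0.20). The groups of Rps2 overlapped, and its stage counts carry the limit given above. Rpl35a, one of the genes affected in Diamond-Blackfan anaemia, was at 26.6, 22.5 and 29.7 CPM, then at 39.03, 28.9 and 28.2 CPM and at E14.5 at 50.2, 48.8 and 30.1 CPM. The last of these libraries lay near the E10.5 range.

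**Figure D2:**
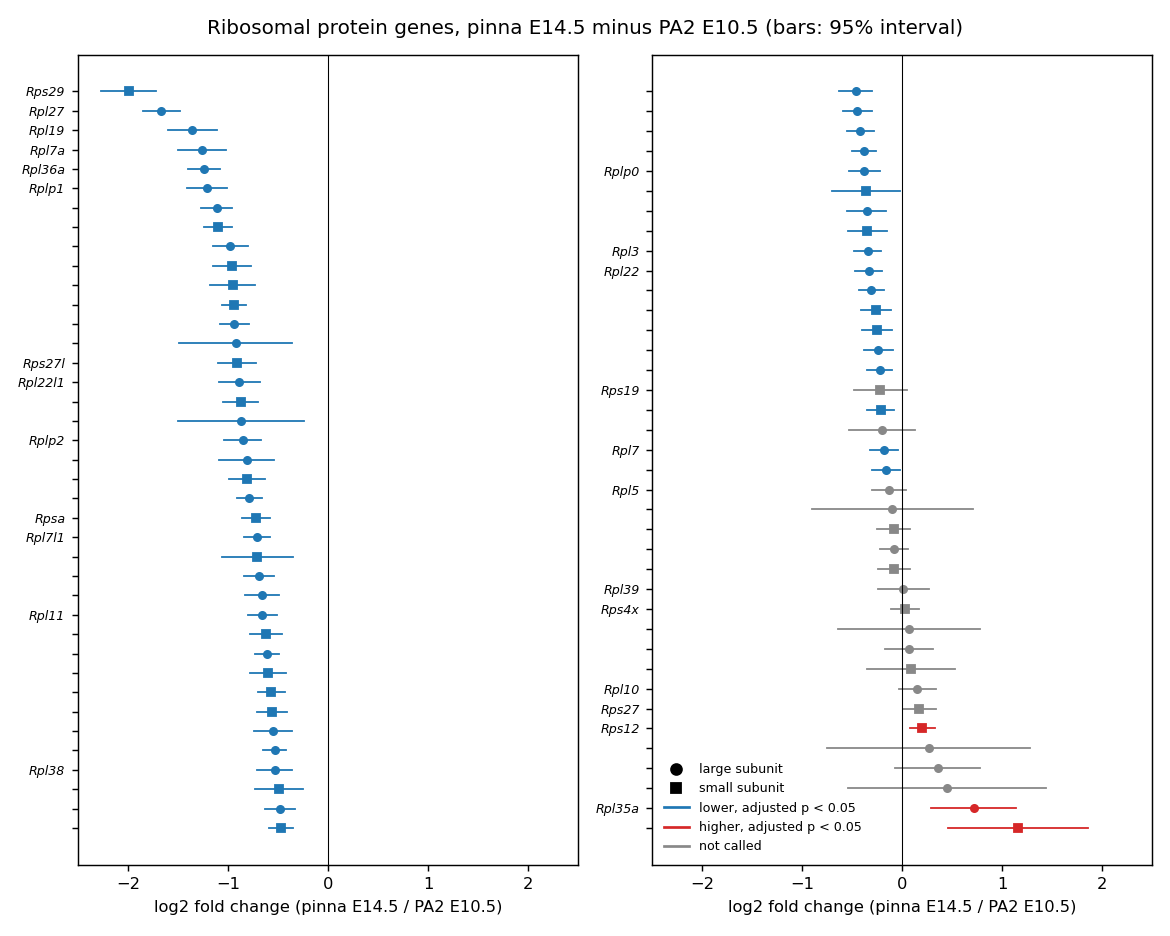
Fitted log2 fold change of pinna E14.5 over PA2 E10.5 (x axis) for 77 ribosomal protein genes, sorted, with the 95% interval as a bar and a name beside those chosen by rule. Rpl39l, with 1 count at E10.5, and Rps18, with counts in single libraries only, are left out. Most points lie left of 0, from Rps29 at −1.99, and Rps2 at 1.15 lies farthest right with a wide bar.

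A gene that is nearly silent in these cells at E10.5 became detectable in the pinna. Rpl39l, at chr16:10170226-10174911 on the plus strand, encodes a relative of Rpl39 at the wall of the peptide exit tunnel and is best known from the testis. It shares no window and no exon with another annotated gene. Its counts were 0, 1 and 0 at E10.5, 21, 21 and 24 at E12.5 and 185, 179 and 184 at E14.5, and the 3 groups were far apart relative to their spread. With 1 count at E10.5, the ratio of E12.5 to E10.5 was 68.0 (95% exact interval 11.8 to 2727) and that of E14.5 was 354 (63.3 to 14021), where the bounds cover counting error only. From E12.5 to E14.5 the fitted change was 2.37 on the log2 scale, from 0.76 to 3.96 CPM. Rpl39l passed the filter on low counts only through E14.5, where it is highest, so its changes are given as a description with no test, although it is among the members counted as higher in each stage comparison. In the genotype series, all E10.5, it had 0 to 6 counts in each library. Rpl39 itself was at 132, 125 and 133 CPM on average at the 3 stages and was not called in any stage comparison (95% interval of the log2 change over the whole interval −0.25 to 0.27). Rpl39l therefore made up 0.0155% ± 0.0268, 1.05% ± 0.164 and 4.89% ± 0.396 (SD, n = 3) of the pair per kilobase. These percentages rest on the exonic bases given for each gene, 831 for Rpl39l and 1434 for Rpl39. Markers of some other cell types also rose over these stages, and others fell. The sum of glial and melanocyte markers, cells that are crest-derived and would carry the red reporter, was 16.5 to 18.3 CPM at E10.5. It was 40.2 to 53.4 CPM at E12.5 and 344 to 401 CPM at E14.5, and all 5 of these genes that were tested rose at the second step. Of 4 endothelial markers tested 1, Kdr, rose at each step, from 3.26 to 17.97 and 141 CPM on average, while Pecam1 was at 2.89, 1.70 and 2.43 CPM and Cdh5 at 0.91, 1.69 and 2.18 CPM. The sum of neuronal markers fell from 40.2 to 32.6 and 13.7 CPM on average, and that of cartilage markers from 1171 to 609 and 248 CPM. Over the whole interval 2 of 4 neuronal, 1 of 3 cartilage and 3 of 5 epithelial markers tested rose, and the others fell. The part of these cell types in the rise of Rpl39l was not tested.

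Other pairs shifted in the opposite direction and at different steps. Windows shared with other genes were unequal within them: 46.2% in Rps27 and 16.2% in Rps27l, 51.4% in Rpl22l1 and 5.16% in Rpl22. In Rpl7 and Rpl7l1 they were 49.3% and 7.48%. The percentages of a pair therefore depend on how shared reads were counted, and also on the exonic bases given for each gene. Rps27l gave 74.2% ± 2.08 (SD, n = 3) of its pair with Rps27 at E10.5 and 55.8% ± 0.657 at E12.5, and stayed at 57.9% ± 1.73 at E14.5, a shift made by the fall of Rps27l together with the small rise of Rps27. Rpl22l1, the relative that can compensate for loss of the RNA-binding Rpl22, held 35.9% ± 1.02 and 35.5% ± 1.19 of its pair and then 27.7% ± 2.06. Both fell from E12.5 to E14.5, Rpl22l1 from 42.0, 47.1 and 46.2 CPM to 27.0, 28.4 and 22.4 CPM (−0.80, SE 0.09, adjusted p = 2.25e-05, edgeR), and Rpl22 from 224, 236 and 256 CPM to 201, 199 and 192 CPM (−0.28, SE 0.06, adjusted p = 0.00213, edgeR). Rpl7l1, which acts in assembly of the large subunit rather than in the finished ribosome, went from 21.1% ± 0.696 to 19.1% ± 0.288 and 15.7% ± 0.394 of its pair with Rpl7. It fell by −0.54 and then −0.17, the second call being lost without replicate 2 of E12.5 or replicate 2 or 3 of E14.5 (adjusted p = 0.0596 to 0.0708, edgeR). Rps4x was at 284, 264 and 288 CPM on average and was not called at any step (95% interval over the whole interval −0.12 to 0.16), and its relative Rps4l had 1 count in all. Rpl3 fell by −0.39 at the first step with no call at the second (0.05), and Rpl3l stayed at 0 or 1 count.

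**Figure D3:**
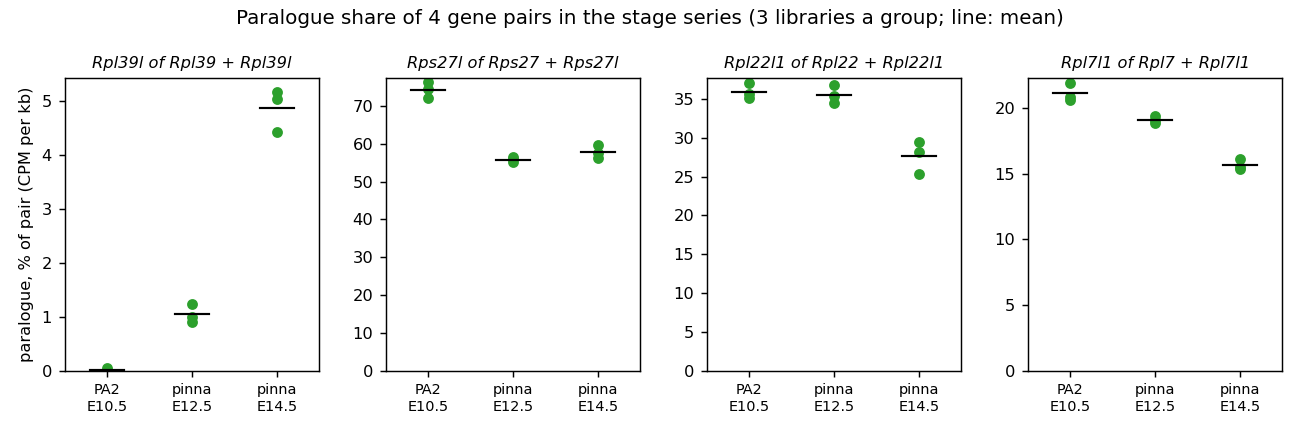
Share of the relative in 4 gene pairs (y axis, % of the summed CPM per kb of both genes) in the 3 libraries of each stage (points) with the mean (line). Rpl39l goes from 0.0155% to 4.89% of its pair, while Rps27l, Rpl22l1 and Rpl7l1 go down, Rps27l before E12.5 and Rpl22l1 after it.

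The stalk proteins, which stand out from the large subunit to recruit translation factors, did not move as 1 unit. Rplp1 lay at 476, 476 and 451 CPM, then at 324, 309 and 354 CPM, and then at 199, 178 and 229 CPM, and it fell at both steps (−0.51 and −0.70, adjusted p = 0.000339 and 3.33e-05, edgeR). Rplp2 went from 316, 345 and 310 CPM to 264, 263 and 267 CPM and to 169, 162 and 206 CPM (−0.29 and −0.56, adjusted p = 0.01 and 0.00014, edgeR). Rplp0, the base on which they sit, fell only at the first step, from 711, 699 and 627 CPM to 518, 492 and 504 CPM (−0.43, adjusted p = 0.000244, edgeR), and was at 557, 477 and 532 CPM at E14.5 (0.05, 95% interval −0.11 to 0.21). The differences between these genes' changes were not tested.

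Members with known roles in development and in nucleolar stress were described whatever their change. Rpl5 and Rpl11 bind 5S rRNA and, when free, MDM2. Rpl11 fell at both steps, from 49.4, 49.9 and 49.9 CPM to 37.0, 36.6 and 39.6 CPM and to 32.5, 33.1 and 29.1 CPM (−0.40 and −0.26). Rpl5 was at 140, 144 and 135 CPM, then at 114, 119 and 112 CPM and at 117, 144 and 120 CPM, with a call at the first step only (−0.28). Rpl38, whose loss alters Hox protein output and skeletal pattern in the mouse Tail-short mutant, fell from 64.3, 63.5 and 57.7 CPM to 48.6, 40.9 and 44.7 CPM (−0.47, SE 0.08, adjusted p = 0.000302, edgeR) and was at 45.1, 39.8 and 43.3 CPM at E14.5. Rps19, the gene most often affected in Diamond-Blackfan anaemia, went from 70.6, 79.5 and 92.3 CPM to 58.9, 50.3 and 56.0 CPM (−0.55, adjusted p = 0.00183, edgeR) and was at 58.2, 79.5 and 70.2 CPM at E14.5.

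Most genes that build, escort or parallel the ribosome also fell from E10.5 to E12.5, where 33.7% of all genes were lower and 35% higher. The step from E12.5 to E14.5 was more mixed, beside 33.1% of all genes lower and 32.6% higher. Ribosome biogenesis factors, 30 listed, all fell from E10.5 to E12.5, led by Rrp12 (−1.47), Nhp2 (−1.39) and Gar1 (−1.39), and 18 fell and 4 rose from E12.5 to E14.5. Their median was −0.93 and then −0.24. Of 74 mitochondrial ribosomal protein genes tested, 61 fell and none rose at the first step (median −0.51; Mrpl12 −1.10), and 52 fell and 2 rose at the second (median −0.35; Mrpl34 −1.20). RNA polymerase I genes had 8 of 11 lower and 1 higher, then 6 and 1 (Polr1e −0.86 and −0.48). Of 18 other TOP messages, mostly those of translation factors, 14 fell and none rose, then 8 fell and 2 rose (Pabpc1 −1.02 at the first step, Hnrnpa1 −1.01 at the second). Chaperones and importers of ribosomal proteins had 10 of 10 lower at the first step, and 4 lower and 1 higher at the second (Ipo5 −0.93 and −0.62). At the second step the median was −0.17 for the other TOP messages and −0.01 for the chaperones and importers. Among ribosomal proteins outside the symbol rule, Rpl36al and Fau fell at both steps, and Rack1 at the second.

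Regulators were mixed. Of 8 MYC network genes 3 fell and 2 rose at the first step, and 2 fell and 4 rose at the second. Mycn, a MYC prominent in embryonic tissue, fell at both (−1.85 and −1.67), as did Mycl (−1.47 and −2.07), whereas Myc fell and then rose (−0.97 and 1.65) and the antagonist Mxd4 rose at the first step (1.35). Of 11 mTOR pathway genes tested, 5 fell and 1 rose, then 3 fell and 4 rose, with Eif4ebp1 at −1.14 and 0.67. Of 11 p53 targets 3 fell and 3 rose, then 4 and 4. All 7 proliferation markers fell at both steps, their sum going from 4205 to 4642 CPM at E10.5 to 2218 to 2336 CPM at E12.5 and 989 to 1361 CPM at E14.5. The part of proliferation and of the other cell types in the fall of the ribosomal protein genes was not tested.

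Loss of HIRE1 left no ribosomal protein gene past the threshold in either arch. In PA2, 0 of 80 members were called, where 0.438% of all genes tested were, 0.118% higher and 0.32% lower. Groups did not overlap in 5 members, all higher in HIRE1del/del, against 5.73% of all genes higher and 7.52% lower. By unadjusted p below 0.05 there were 2 members, Rps2 and Rpl26, against 8.57% of all genes. Both had a log2 fold change of 0.59 (SE 0.22 and 0.26), and DESeq2 called 0 members. Fitted changes were mostly small and positive, with 66 of 80 above 0 against 46.9% of all genes and a median of 0.06 against −0.01. In PA3, 0 of 80 were called in edgeR, where 0.216% of all genes tested were, 0.0556% higher and 0.16% lower. Groups did not overlap in 12 members, all higher, against 6.96% of all genes higher and 7.38% lower, and 19 had an unadjusted p below 0.05 against 9.73% of all genes. There 75 of 80 fitted changes lay above 0, against 49.3% of all genes, with a median of 0.11 against 0.00 and 0.02 over genes of at least 64 CPM. Single members share libraries and scaling, so these counts of direction are not 80 separate observations.

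The member nearest to a call was Rpl22l1 in PA3, at 86.6, 86.7 and 95.6 CPM in WT and 111, 115 and 102 CPM in HIRE1del/del (0.29, SE 0.07, adjusted p = 0.23, edgeR). Its groups did not overlap, and DESeq2 called it alone (0.28, adjusted p = 0.0341). In PA2 it was at 103, 91.5 and 89.7 CPM in WT and at 94.7, 105 and 91.2 CPM in HIRE1del/del (0.03, 95% interval −0.12 to 0.19). Rpl30 was the 1 member called in PA3 when replicate number was a block (0.30, adjusted p = 0.0445), though the numbers do not pair WT with HIRE1del/del embryos. Rpl38, in view of its link to Hox proteins, had 143, 140 and 135 CPM in PA2 WT and 141, 143 and 136 CPM in PA2 HIRE1del/del (0.01, 95% interval −0.13 to 0.14). In PA3 it was at 144, 153 and 148 CPM and at 172, 166 and 142 CPM (0.11, 95% interval −0.03 to 0.24). In the test of whether the effect of the deletion differed between the arches, 0 of 80 members were called in edgeR and 0 in DESeq2, where edgeR called 0.0487% of all genes, and 2 had an unadjusted p below 0.05, Rpl22l1 and Rpl39, against 5.52% of all genes. The median of this difference, PA2 minus PA3, was −0.06.

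Between the arches, called members were higher in PA3 in the fit without pairing. In WT, 13 of 80 were higher and 0 lower, below the 36.5% of all genes called and, for the higher side alone, the 19.1%, with 17.4% lower. The median was 0.09 over members and 0.00 over all genes, but −0.09 over genes of at least 64 CPM. The rises were small: Rplp1 was at 529, 550 and 459 CPM in PA2 and 600, 604 and 672 CPM in PA3 (0.29, SE 0.10, adjusted p = 0.0314, edgeR). Rpl10a was at 124, 129 and 114 CPM in PA2 and 146, 138 and 159 CPM in PA3 (0.27, SE 0.07, adjusted p = 0.00587, edgeR). Rpl41 was at 362, 381 and 316 CPM and at 410, 396 and 464 CPM (0.26, SE 0.09, adjusted p = 0.0288, edgeR). Groups did not overlap in these 3 genes. Rplp0 (0.25) and Rpsa (0.21) were also called. The count depended on single libraries: 2 members were called without replicate 3 of PA2 WT and 6 without replicate 3 of PA3 WT. Rplp1 and Rpl41 both lost their calls without either of these or without replicate 1 of PA2 WT (adjusted p = 0.0526, 0.133 and 0.102 for Rplp1 and 0.0509, 0.127 and 0.110 for Rpl41, edgeR).

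In HIRE1del/del embryos 26 of 80 members were higher in PA3 and 0 lower, where 33.4% of all genes were called, 18.7% higher and 14.7% lower. The median was 0.15, against 0.00 over all genes. Rpl41 was at 397, 398 and 348 CPM in PA2 and 549, 488 and 467 CPM in PA3 (0.40, SE 0.09, adjusted p = 0.00324, edgeR). Rps29 was at 133, 152 and 126 CPM and at 186, 182 and 159 CPM (0.36, SE 0.10, adjusted p = 0.0187, edgeR), and Rpl37a at 163, 147 and 140 CPM and at 198, 195 and 172 CPM (0.33, SE 0.08, adjusted p = 0.0074, edgeR). Again no PA2 library of these genes reached a PA3 library. The call of Rps29 was lost without replicate 1 or 3 of PA2 HIRE1del/del or 1 or 2 of PA3 HIRE1del/del (adjusted p = 0.0583 to 0.0728). The number called was 4 without replicate 3 of PA2 HIRE1del/del, 7 without replicate 1 of PA3 HIRE1del/del, 14 without replicate 2 of either arch and 40 without replicate 3 of PA3 HIRE1del/del. Both lists shared Rpl10a, Rpl14, Rpl35, Rpl37a, Rpl41, Rplp1, Rps15, Rps7 and Rpsa, 9 genes that are 69.2% of the WT list and 34.6% of the HIRE1del/del list. Over all genes higher in PA3, the shared 2122 were 77.1% and 79.0% of the lists. The lists differ in length, but the test of the difference itself, the one across arches above, called 0 members.

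**Figure D4:**
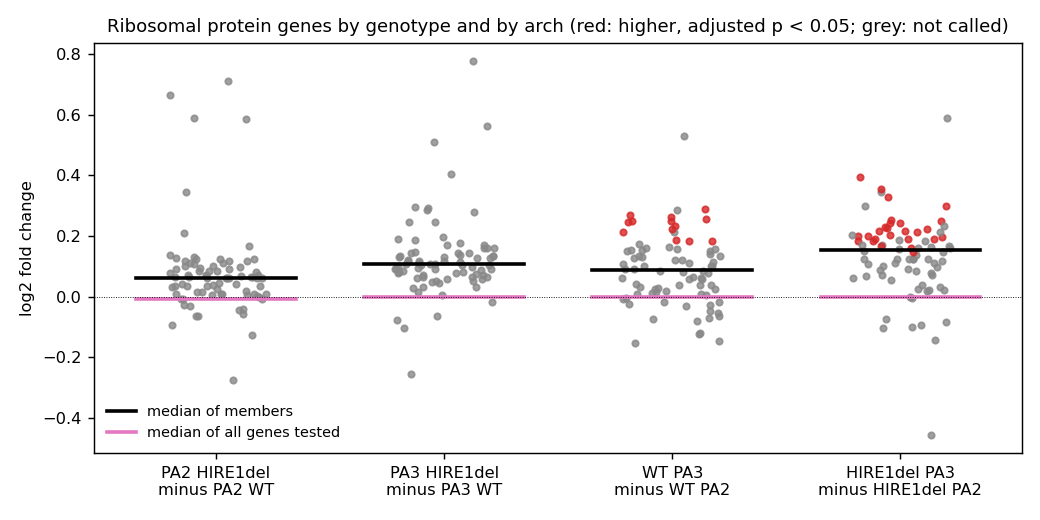
Fitted log2 fold change (y axis) of the 80 ribosomal protein genes tested in the genotype series, 1 point a gene, with the median of members (black) and of all genes tested (pink). Called members (red) occur only in the comparisons between arches, where all 13 in WT and all 26 in HIRE1del/del are higher in PA3, and the genotype comparisons hold no called point.

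Cell composition moved with the arch. All 7 erythroid markers were higher in PA3 in both genotypes, and the summed level did not overlap between the arches. Of the other lists, all 5 neuronal, 4 of 5 endothelial and 4 of 6 epithelial markers were also higher in PA3 in both genotypes, with 1 epithelial marker lower. Of 7 proliferation markers 0 were higher and 2 lower in both genotypes (median −0.11 in WT and −0.16 in HIRE1del/del). Of 5 muscle markers 1 was higher and 2 lower in WT, and 0 and 1 in HIRE1del/del. In both genotypes 2 of 5 glial and melanocyte markers tested were higher and 0 lower, and 0 of 4 macrophage markers were called. Both cartilage markers were lower in both genotypes, and of 8 crest mesenchyme markers 5 were lower and 1 higher in WT, and 4 lower and 3 higher in HIRE1del/del. The crest list includes Hoxa2, the target of the deleted region. In HIRE1del/del it had the largest rise of that list, from 5.87 CPM in PA2 to 23.8 CPM in PA3. The part of blood and other cells in the arch difference of the ribosomal protein genes was not tested. Of the lists around the ribosome, in WT, biogenesis factors had 0 higher and 4 lower of 30, chaperones and importers 1 higher and 6 lower of 10, polymerase I genes 0 higher and 4 lower of 11, other TOP messages 0 higher and 2 lower of 18, and mitochondrial ribosomal proteins 5 higher and 4 lower of 76. These lists were not tested against the members. In HIRE1del/del the same lists had 1 and 3, 0 and 3, 1 and 2, 0 and 1, and 13 and 2. Of 5 related ribosomal proteins 4 were higher in WT PA3, among them Fau (0.22) and Rack1 (0.17). In the comparisons of genotype none of these lists around the ribosome held a called gene in edgeR.

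Same-numbered PA2 and PA3 libraries of 1 genotype deviated from their group means together, with correlations of 0.213 to 0.382 over all genes. Some libraries of unlike genotype and number reached similar values, such as 0.293 for replicate 1 of PA2 WT and replicate 2 of PA3 HIRE1del/del. Over tested members alone, same-numbered pairs lay at 0.220 to 0.892 and pairs of other numbers within a genotype at −0.713 to 0.336. Unlike libraries were also high over members, such as 0.673 for replicate 2 of PA2 WT and replicate 1 of PA2 HIRE1del/del. No source states that same-numbered libraries share embryos. A shared term for them was fitted as well. With this block 26 members were called in WT, 25 higher and 1 (Rpl15) lower, including all 13 called without it, and 43 in HIRE1del/del, all higher and including all 26. All genes called rose to 42.4% and 39.1%. The difference of the deletion effect between arches still held 0 members.

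Several members, picked out after their values were seen, varied widely between replicate numbers. In some of them same-numbered libraries of both arches lay close together. Rpl29, a large subunit protein, was at 43.5, 110 and 43.9 CPM in PA2 WT and at 49.2, 109 and 51.3 CPM in PA3 WT. In HIRE1del/del it was at 120, 27.8 and 44.3 CPM in PA2 and at 125, 25.6 and 56.7 CPM in PA3. Libraries of 1 arch thus ranged over 4.30-fold and 4.89-fold, whereas PA3 over PA2 at the same number and genotype was 0.922 to 1.28. Rps3a1 was at 199, 358 and 360 CPM in PA2 WT and 197, 374 and 367 CPM in PA3 WT, with a ratio of 0.945 to 1.14 over all 6 pairs. Rpl26 had a ratio of 1.10 to 1.34, with 91.2 CPM in replicate 1 of PA2 WT and 106 CPM in replicate 1 of PA3 WT, where the other WT libraries held 182 to 219 CPM and the HIRE1del/del libraries 221 to 314 CPM. The HIRE1del/del libraries of Rpl26 were at 254, 221 and 235 CPM in PA2 and at 296, 293 and 314 CPM in PA3, where the arches lay apart. Rps10 did not follow its number, with a ratio of 0.343 to 2.01, nor did Rps28, with 0.403 to 2.19. In Rps18 the ratio was 1.14 to 2.06. What sets these levels was not tested. Rpl29 shares 35.5% of its windows, with 84 other genes.

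**Figure D5:**
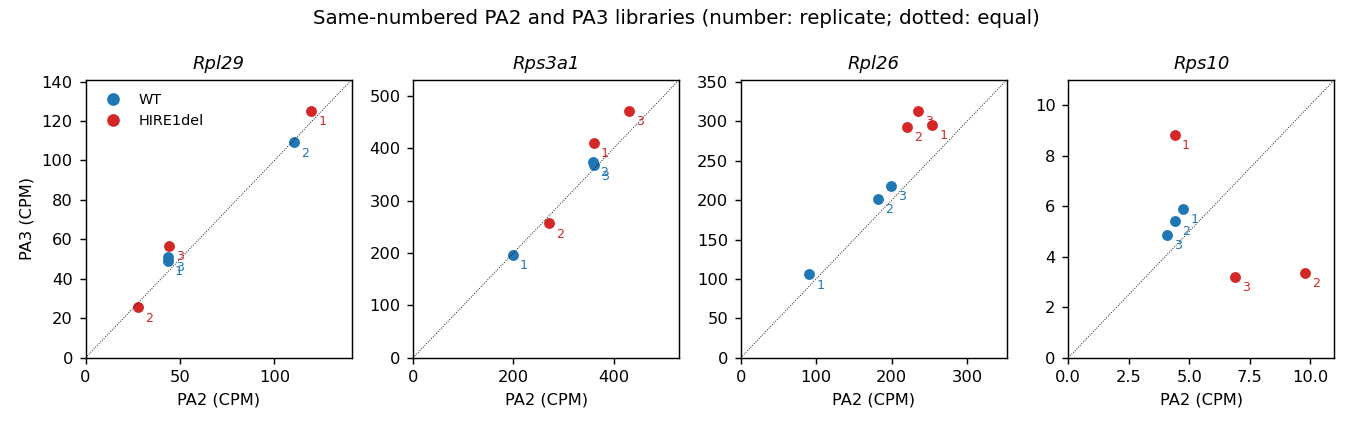
Level of Rpl29, Rps3a1, Rpl26 and Rps10 (CPM) in PA2 (x axis) and PA3 (y axis) for the 6 pairs of libraries with the same genotype and replicate number (numbers beside points). The dotted line marks equal levels: Rpl29 and Rps3a1 stay near it over their whole range, Rpl26 lies above it and Rps10 scatters around it.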

How the data were processed

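RNA was sequenced in 21 libraries. Per the labels and the study's methods, libraries were made with an unstranded TruSeq kit, base calls were converted with bcl2fastq 2.17 and 2.20, and the authors aligned reads of 50 bases to GRCm38 (mm10) and counted them per UCSC known gene with QuasR, with the orientation set to opposite. The treatment of reads with several matches is not given in the sources used here. The deposited values are raw counts per gene, 1 table for 9 single-end stage libraries and 1 for 12 paired-end libraries, and no column was left unused.

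Printed CPM were computed from library totals multiplied by TMM factors. Genes reaching 1 CPM by library total in 2 or more libraries of a table were fitted with edgeR 4.0.16 (R 4.3.3), TMM factors and 1 mean per group, and tested two-sided with glmQLFTest. SE is the absolute log2 fold change over the square root of F. Counting intervals are exact at 95% and floors are 3 counts. Both cover counting error only. Alternatives were DESeq2 1.42.0, limma-voom 3.58.1, other scaling factors and filters, blocks and left-out libraries. An alternative with members under 50% shared was chosen after seeing the data. On simulated counts of the stage table (12480 genes, E12.5 against E10.5), the fit recovered 16%, 68%, 74% and 100% of genes changed 1.25-, 1.5-, 2- and 3-fold. For PA2 HIRE1del/del against WT (13937 genes) these were 26%, 70%, 94% and 100%. In these simulations all groups shared 1 mean per gene, apart from 50 genes changed at each size. The changed genes were drawn from all genes of at least 1 CPM, not from members. Far more genes were called in the real stage comparison, so the stage shares do not describe that test.

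Named singly were, in each stage comparison, the 5 largest rises and falls, and in each other comparison the 3 largest, among called members with a mean log2 CPM of at least 1 and groups apart, together with fixed members (gene pairs, stalk, Rpl5, Rpl11, Rpl38, Rps19, Rpsa), those missing the filter and the 3 highest and lowest. At most 4 genes of another list were named per comparison. Members and lists were chosen with earlier results of these data known. Same-numbered PA2 and PA3 libraries of a genotype were given a shared term in an alternative fit because all 6 pairs correlated over 0.1. The arch results given first came from the fit without this term. Pairs of other numbers within a genotype lay at −0.262 to 0.0799. Some libraries that cannot be mates also passed 0.1, such as replicate 1 of E10.5 with replicate 2 of E12.5 (0.317), so the rule alone does not establish pairing. Pairing came from the numbers in the titles. Shared windows were found among GENCODE vM21 transcripts, as no genome sequence was used here. Starts came from RefSeq. Some members that met the rule are not reported here by name.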

Additional observations from a re-analysis of the deposited data

How the results depend on the processing

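Of 62 results for single members, 51 kept direction and call under all alternatives run and 11 lost the call under at least 1, with 0 reversed. With library totals as the scaling, the member median was −0.22 from E12.5 to E14.5 and −0.54 from E10.5 to E14.5. Among members under 50% shared, 25 of 56 were called from E12.5 to E14.5 (4 higher, 21 lower). In PA3, HIRE1del/del against WT, DESeq2 called 1 member and the replicate block 1. Shares of counts without the 50 most abundant other genes were 1.81%, 1.53% and 1.33% by stage and 2.77%, 2.90%, 3.10% and 3.31% in PA2 WT, PA2 HIRE1del/del, PA3 WT and PA3 HIRE1del/del, in the same order as with all genes. Their denominator is smaller by construction.

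Leaving out 1 library at a time gave 46 to 55 members called from E10.5 to E12.5, 32 to 40 from E12.5 to E14.5 and 57 to 63 from E10.5 to E14.5, 0 in both genotype comparisons and in the difference between arches, 2 to 12 between WT arches and 4 to 40 between HIRE1del/del arches. Member medians then ranged from −0.35 to −0.28, −0.15 to −0.09, −0.51 to −0.42, 0.03 to 0.09 in PA2, 0.06 to 0.15 in PA3, −0.11 to 0.00 for their difference, 0.06 to 0.10 and 0.09 to 0.21. Group shares moved within 1.63% to 1.68%, 1.34% to 1.38%, 1.11% to 1.15%, 2.45% to 2.55%, 2.53% to 2.66%, 2.70% to 2.75% and 2.81% to 2.96% in the order above. Fewer samples enter each of these fits.

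With the block of same-numbered PA2 and PA3 libraries of a genotype, 26 and 43 members were called between arches. That these libraries share embryos is not stated in any source. Replicate numbers do not pair stages (correlations −0.312 to 0.202) or WT with HIRE1del/del (−0.202 to 0.276). A replicate block there changed no call of a member named in the report, apart from Rpl30 in PA3. Over all genes, DESeq2 and the replicate block called 164 and 105 in place of 63 in PA2, and 93 and 54 in place of 31 in PA3. For the difference between arches they called 27 and 12 in place of 7, where the block of same-numbered PA2 and PA3 libraries called 26. The cause was not tested.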
